A study of Mus musculus with 15 samples.

Results

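The genes described here are the basal keratins Krt5, Krt14, Krt15 and Krt17 and the transcription factor gene Trp63, which encodes p63. They were chosen by name with earlier results of these data known, so counts of called members describe these genes and are no independent support. Each had 1 probe set assigned to it alone, and they make up 5 of the 19938 genes measured. They were followed on 15 whole-transcript arrays of epithelial cells cultured from the ventral prostate of FVB mice, in 5 groups of 3 arrays. The oncogene groups were lines transformed with c-myc (Myc), neuT (NeuT, an activated Erbb2, which is a growth factor receptor with kinase activity), ha-ras (Ras, a small GTPase) or v-src (Src, a viral tyrosine kinase). The control group held primary cultures with no transduced gene. Per the study's design text each oncogene was represented by 3 lines, and nothing in the labels says whether the control arrays came from separate animals. The spread behind every p-value is that between arrays, which for the controls may be technical. The lines were grown in DMEM with 10% serum, whereas the controls were kept in a primary prostate epithelial medium and moved to the same serum medium the night before harvest. Oncogene and culture history therefore cannot be told apart in any comparison with control, but comparisons among the oncogene groups do not carry this difference.

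Keratins build the intermediate filaments of epithelial cells, each filament pairing a type I with a type II chain. Krt5 is the type II chain and Krt14 the main type I partner of basal cells in stratified and glandular epithelia. Krt15 is a further type I keratin of basal cells, and Krt17 a type I keratin of basal and wounded epithelium. p63, a relative of p53, is required for basal cells and for prostate development, and activates Krt5 and Krt14 in skin keratinocytes. In the prostate these genes mark the basal layer, while luminal cells carry the simple keratins Krt8 and Krt18.

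The RefSeq promoter table (build GRCm38.p6) held a window at the annotated start of 1 of these genes, Krt5. The sequence is shown because Krt5 was the basal keratin that, together with Trp63, was higher in Src lines than in control. It covers chr15:101712856-101713155 on the minus strand, from 250 bases before to 50 after the start site, and the capitals mark its 1 match to the p53 family half-site consensus, which p63 also binds.
Krt5 promoter: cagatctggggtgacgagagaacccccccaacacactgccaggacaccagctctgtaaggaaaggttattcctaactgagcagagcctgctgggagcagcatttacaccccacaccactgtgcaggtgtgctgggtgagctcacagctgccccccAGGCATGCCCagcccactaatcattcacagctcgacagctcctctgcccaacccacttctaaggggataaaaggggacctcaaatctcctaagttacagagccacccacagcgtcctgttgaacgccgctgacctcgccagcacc
The match begins 95 bases before the start site. Such a half-site, on either strand, was present in 8.36% of the 32851 windows of this length in the table. The AP-2 motif GCCNNNGGC, the AP-1 motif TGANTCA and the GC box GGGCGG, searched on both strands, had 0 matches in this window and were present in 16.6%, 7.81% and 35.7% of all windows. These matches describe letters only and show no binding.

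Values are log2 expression as normalized by the authors, with array medians from 6.19 to 6.32, and 6.47 was the median of all gene values. Levels under that median may lie near background, which was not measured here, so folds that end there may be understated. Levels of single genes were compared across groups within a probe set. Exceptions were the median gene, used as a reference level, and the summed levels of marker lists, in which the brightest probe sets weigh most. Control array 3 stood apart: 685 of the 19938 genes were at least 2-fold higher in it than in the mean of control arrays 1 and 2, and 2 were lower by as much. Among them were 11 of 13 kidney tubule markers, all higher, and the log2 of their summed level was 9.66 to 9.72 in the Myc-labelled arrays, 9.73 to 9.75 in NeuT, 9.61 to 9.79 in Ras and 9.72 to 9.74 in Src, against 9.60 to 13.63 in control. The level of Kap, which androgens induce in kidney tubules, was 12.10 in control array 3, and 4.78 and 4.83 in control arrays 1 and 2. All 5 genes were lower in control array 3 than in the mean of the other controls, by a log2 difference of -0.34 (Krt14) to -0.65 (Krt17), and results with and without it are given below. The transduced genes were read to check the group labels. Erbb2 averaged 9.50 ± 0.38 (SD, n = 3) in NeuT lines and 7.80 ± 0.03 in control (log2 fold change 1.70 ± 0.13 SE, limma adjusted p = 4.27e-07). Myc was at 8.78 ± 0.17 in the arrays labelled Myc and 9.70 ± 0.29 in control (log2 fold change -0.92, adjusted p = 0.00207), which goes against the label. Src was at 7.08 ± 0.02 in Src lines and 7.04 ± 0.19 in control (adjusted p = 0.743). Whether these probe sets read the transduced copies was not tested. No ras gene was read, and directions for the Myc-labelled, Ras and Src lines rest on the labels. In such bulk cultures, fewer basal cells and less basal RNA per cell cannot be told apart.

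All 5 genes had group means above the median gene in Src lines and control, and below it in Ras lines. In NeuT lines all but Krt14 were below it as well, and in the Myc-labelled lines Krt15, Krt17 and Trp63 were, but Krt5 and Krt14 were not. A gene is called higher or lower at a Benjamini-Hochberg adjusted p under 0.05 over all 19938 genes, from a limma fit to all 15 arrays, and at least 2-fold.

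**Figure D1:**
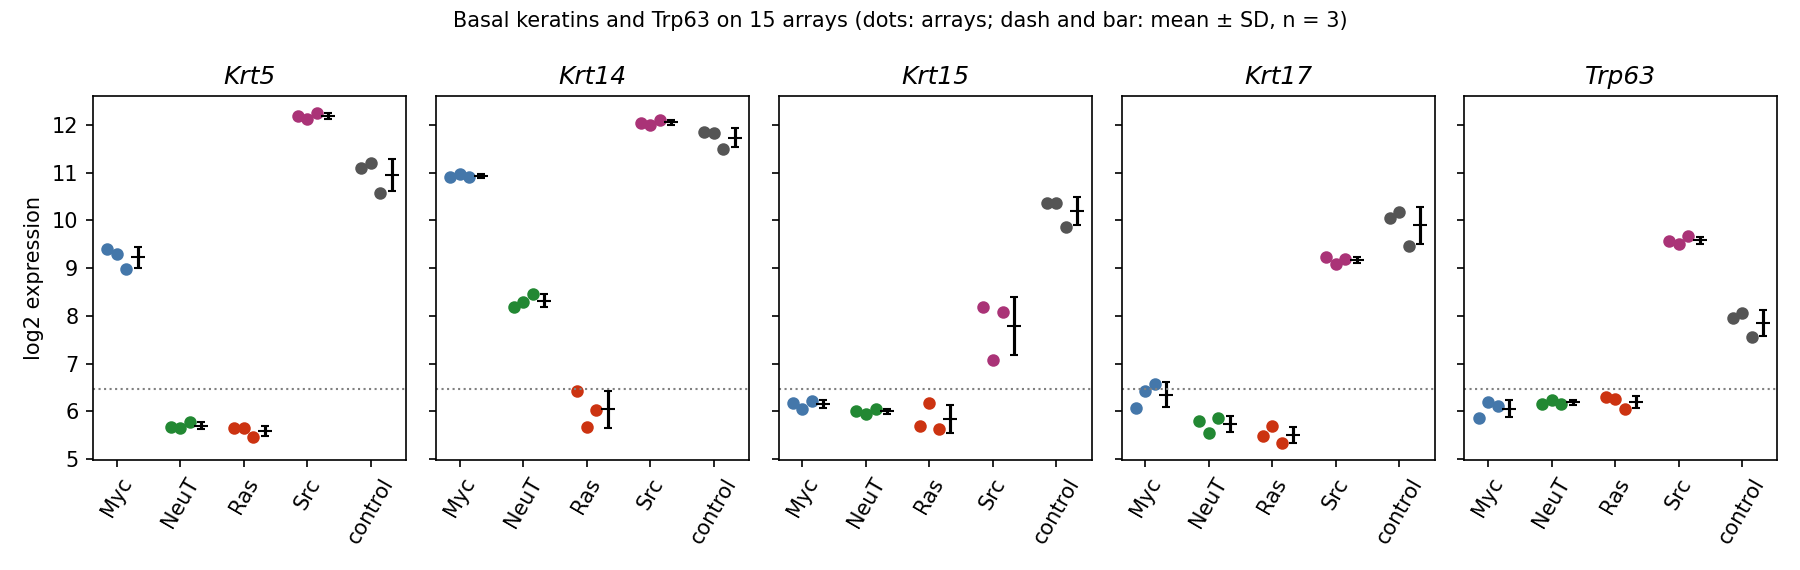
Log2 expression (y axis) of the 5 genes in each group (x axis). Dots are arrays, the dash and bar are the mean ± SD of 3 arrays, and the dotted line is the median of all gene values (6.47). Krt5 and Trp63 were highest in Src lines, while Krt15 was highest in control.

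Krt5 was at 9.40, 9.29 and 8.99 in the Myc-labelled arrays, 5.67, 5.65 and 5.78 in NeuT, 5.64, 5.66 and 5.46 in Ras, 12.19, 12.13 and 12.25 in Src, and 11.09, 11.21 and 10.58 in control. All Src arrays lay above all controls, all Myc-labelled arrays below them, and NeuT and Ras arrays overlapped at a level below the median gene. Against control it fell in NeuT lines (log2 fold change -5.26 ± 0.14 SE, 38.4-fold, adjusted p = 6.84e-11), in Ras lines (-5.37 ± 0.14, 41.4-fold, adjusted p = 5.09e-12) and, less far, in the Myc-labelled lines (-1.74 ± 0.14, 3.33-fold, adjusted p = 7.03e-07). In Src lines it was higher by 1.23 ± 0.14 (2.35-fold, adjusted p = 2.37e-05). The only neighbours in the order Src, control, Myc, NeuT, Ras whose difference missed the threshold were NeuT and Ras (adjusted p = 0.658). Its range of group means, 6.60, ranked 3 among all 19938 genes.

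Krt14 was at 10.91, 10.98 and 10.91 in the Myc-labelled arrays, 8.19, 8.29 and 8.46 in NeuT, 6.43, 5.67 and 6.02 in Ras, 12.05, 12.00 and 12.11 in Src, and 11.85, 11.84 and 11.50 in control. The groups did not overlap, and Ras arrays alone lay below the median gene. It fell in Ras lines (log2 fold change -5.69 ± 0.15 SE, 51.6-fold, adjusted p = 5.14e-12) and in NeuT lines (-3.42 ± 0.15, 10.7-fold, adjusted p = 2.27e-09). The Ras lines were lower than the NeuT lines (log2 fold change -2.27 ± 0.15, adjusted p = 7.25e-08), whereas for its partner Krt5 the value was -0.11 ± 0.14 (adjusted p = 0.658). The Myc-labelled lines were lower than control by less than 2-fold (log2 fold change -0.80 ± 0.15, adjusted p = 0.000998), and in Src lines the difference from control missed the threshold (log2 fold change 0.32 ± 0.15, adjusted p = 0.134).

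Krt15 was at 6.17, 6.05 and 6.22 in the Myc-labelled arrays, 5.997, 5.95 and 6.05 in NeuT, 5.70, 6.17 and 5.64 in Ras, 8.18, 7.08 and 8.09 in Src, and 10.37, 10.37 and 9.87 in control. It was the only one of the 5 genes called lower in all 4 oncogene groups, and the Src arrays lay between the other lines and the controls. The log2 fold change was -2.42 ± 0.24 in Src lines (5.34-fold, adjusted p = 5.12e-06), and -4.05, -4.20 and -4.37 in the Myc-labelled, NeuT and Ras lines (adjusted p = 2.77e-08, 1.92e-08 and 5.94e-09). Src array 2 was the lowest of its group, and the Src SD of 0.61 was the widest of the 25 group SDs. The Myc-labelled, NeuT and Ras lines, all below the median gene, did not pass against each other (adjusted p from 0.382 to 0.848).

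Krt17 was at 6.07, 6.42 and 6.57 in the Myc-labelled arrays, 5.80, 5.55 and 5.85 in NeuT, 5.48, 5.69 and 5.35 in Ras, 9.23, 9.09 and 9.19 in Src, and 10.04, 10.18 and 9.46 in control. Src arrays lay just below the lowest control, and the other lines lay far below both. It fell in the Myc-labelled lines (log2 fold change -3.54 ± 0.17 SE, 11.6-fold, adjusted p = 5.2e-09), in NeuT lines (-4.16 ± 0.17, 17.8-fold, adjusted p = 1.17e-09) and in Ras lines (-4.39 ± 0.17, 20.9-fold, adjusted p = 1.93e-10). In Src lines it was lower by less than 2-fold (log2 fold change -0.72 ± 0.17, adjusted p = 0.00627). Ras lines (log2 fold change -0.85 ± 0.17, adjusted p = 0.00158) and NeuT lines (-0.62 ± 0.17, adjusted p = 0.0244) were also under the Myc-labelled lines by less than 2-fold.

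Trp63 was at 5.85, 6.21 and 6.10 in the Myc-labelled arrays, 6.16, 6.25 and 6.16 in NeuT, 6.30, 6.25 and 6.04 in Ras, 9.57, 9.51 and 9.66 in Src, and 7.95, 8.05 and 7.55 in control. The Myc-labelled, NeuT and Ras arrays overlapped below the median gene, whereas every Src array exceeded every control. It was higher in Src lines by 1.73 ± 0.13 (log2, SE, 3.32-fold, adjusted p = 2.76e-07). It fell in the Myc-labelled, NeuT and Ras lines, at log2 fold changes of -1.80, -1.66 and -1.65 (SE 0.13 each, adjusted p = 1.38e-07, 3.06e-07 and 2.04e-07). Differences among those 3 groups missed the threshold (adjusted p from 0.469 to 0.98). The probe set was assigned to the gene as a whole, and the isoforms with and without the transactivation domain were not analysed here.

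**Figure D2:**
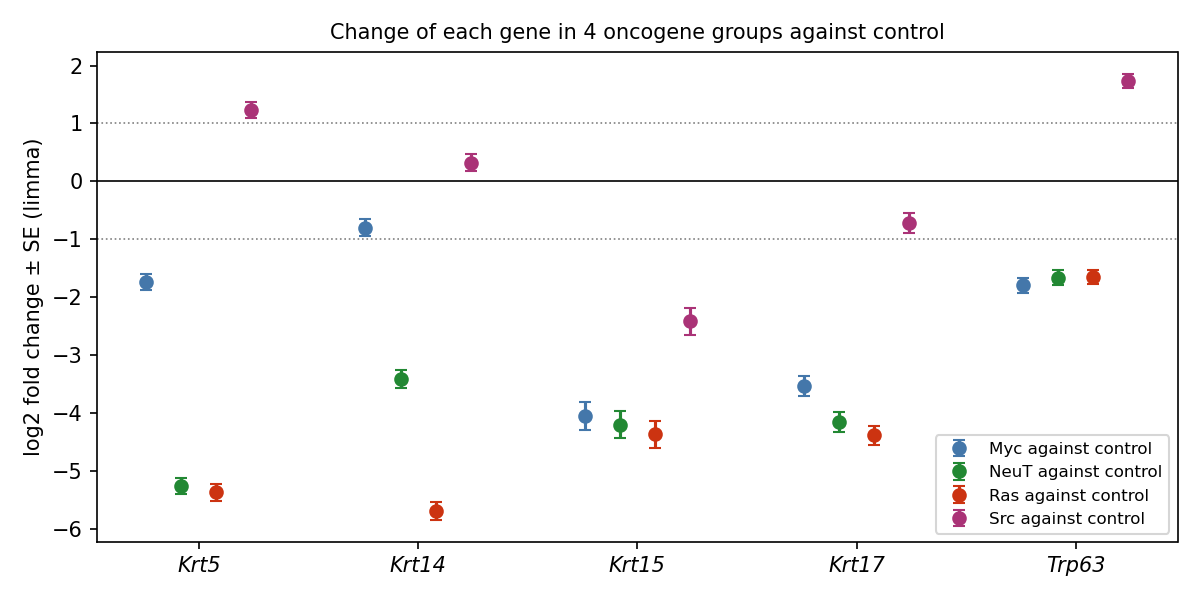
Log2 fold change against control ± SE (y axis) of each gene (x axis) in the 4 oncogene groups. The dotted lines mark 2-fold. Src lines alone had genes above the upper line, Krt5 at 1.23 and Trp63 at 1.73.

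Counted over the 5 genes, 4 were called lower in the Myc-labelled lines, where 3.6% of all genes were, 5 in NeuT lines (3.13% of all genes) and 5 in Ras lines (3.98% of all genes). In Src lines 2 were higher, against 1.51% of all genes, and 1 was lower, against 2.93%. The median log2 change of the 5 genes was -1.80, -4.16, -4.39 and 0.32 in the Myc-labelled, NeuT, Ras and Src lines, and that of all genes 0.03, 0.02, 0.02 and 0.06. When the 4 oncogene groups were averaged and set against control, 4 were called lower (2.96% of all genes), and Trp63 was not (log2 fold change -0.85 ± 0.10, adjusted p = 1.51e-05, under 2-fold). That mean hides the Src lines, where Krt5 and Trp63 went the other way. These comparisons share their controls. Without control array 3 the Src values became 1.04 ± 0.11 for Krt5 (adjusted p = 7.65e-06), 1.58 ± 0.11 for Trp63 (7.71e-08), -2.58 ± 0.24 for Krt15 (1.59e-06), -0.94 ± 0.14 for Krt17 (0.00015) and 0.21 ± 0.16 for Krt14 (0.366), and no call changed.

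Among the oncogene groups, which share their medium, all 5 genes differed in the F test (11.2% of all genes did at a range of at least 1). All 5 were higher in Src lines than in the Myc-labelled lines, NeuT lines and Ras lines, where 1.74%, 1.58% and 2.53% of all genes were higher. The log2 fold changes in Src lines were largest for Krt5 against Ras lines (6.60 ± 0.14, adjusted p = 8.39e-13) and NeuT lines (6.49 ± 0.14, adjusted p = 4.23e-12), and for Trp63 against the Myc-labelled lines (3.53 ± 0.13, adjusted p = 2.8e-10). The smallest were 1.13 ± 0.15 for Krt14 against the Myc-labelled lines (adjusted p = 0.000124), then 1.64 ± 0.24 for Krt15 (adjusted p = 0.000227). In Ras lines Krt5 (-3.64 ± 0.14, adjusted p = 2.76e-10) and Krt14 (-4.89 ± 0.15, adjusted p = 2.86e-11) were lower than in the Myc-labelled lines, 2 of 5 against 3.06% of all genes. In NeuT lines the same pair was lower than in the Myc-labelled lines, at -3.53 ± 0.14 (adjusted p = 3.39e-09) and -2.62 ± 0.15 (adjusted p = 9.33e-08), against 0.813% of all genes. In Ras against NeuT lines Krt14 alone was called, 1 of 5 against 3.3% of all genes. The Myc-labelled lines thus held Krt5 and Krt14 well above the NeuT and Ras lines while their Trp63 did not differ detectably from either. Trp63 means in these groups (6.05, 6.19 and 6.20 in the Myc-labelled, NeuT and Ras lines) lay below the median gene. Levels there may lie near background, so a difference in Trp63 could be missed.

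The keratins form gene clusters, with Krt15, Krt14 and Krt17 close together on chromosome 11 and Krt5 among the type II genes on chromosome 15. On chromosome 11, 4, 5, 5 and 2 of 27 measured keratins were lower than control in the Myc-labelled, NeuT, Ras and Src lines, and 12 of the 27 reached the median gene level in any group. On chromosome 15, 3, 3, 6 and 2 of 24 were lower, and Krt5 in Src lines was the 1 called higher. The counts on both chromosomes include Krt5, Krt14, Krt15 and Krt17 wherever these were called. Over all genes 3.6%, 3.13%, 3.98% and 2.93% were called lower in the same order of groups. Between Krt15 and Krt17 in chromosome order stand Krt19, Krt9, Krt14 and Krt16. Krt9, a keratin of palm and sole skin, had group means from 4.66 to 4.96. Krt16, a keratin of wounded and stressed epithelium, was higher in the Myc-labelled lines (log2 fold change 1.55 ± 0.36, adjusted p = 0.00423) and lower in NeuT (-2.60 ± 0.36) and Ras lines (-2.52 ± 0.36, adjusted p = 7.82e-05 and 9e-05), so in the Myc-labelled lines it was higher while its neighbour Krt17 fell. On chromosome 15 Krt6a, the stress keratin next to Krt5 in the annotation, was at 8.70 in the Myc-labelled lines, 5.94 in NeuT, 5.85 in Ras, 11.01 in Src and 10.24 in control. The near-identical sequences of the Krt6 genes may be read in common by their probe sets, which was not tested. Of 15 other keratins of stratified or stressed epithelium, Krt4, a keratin of internal stratified epithelia, fell in all 4 groups (log2 fold change from -2.82 to -2.51). In total 1 was higher and 2 lower in the Myc-labelled lines, 0 and 3 in NeuT lines, 0 and 3 in Ras lines and 0 and 1 in Src lines.

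**Figure D3:**
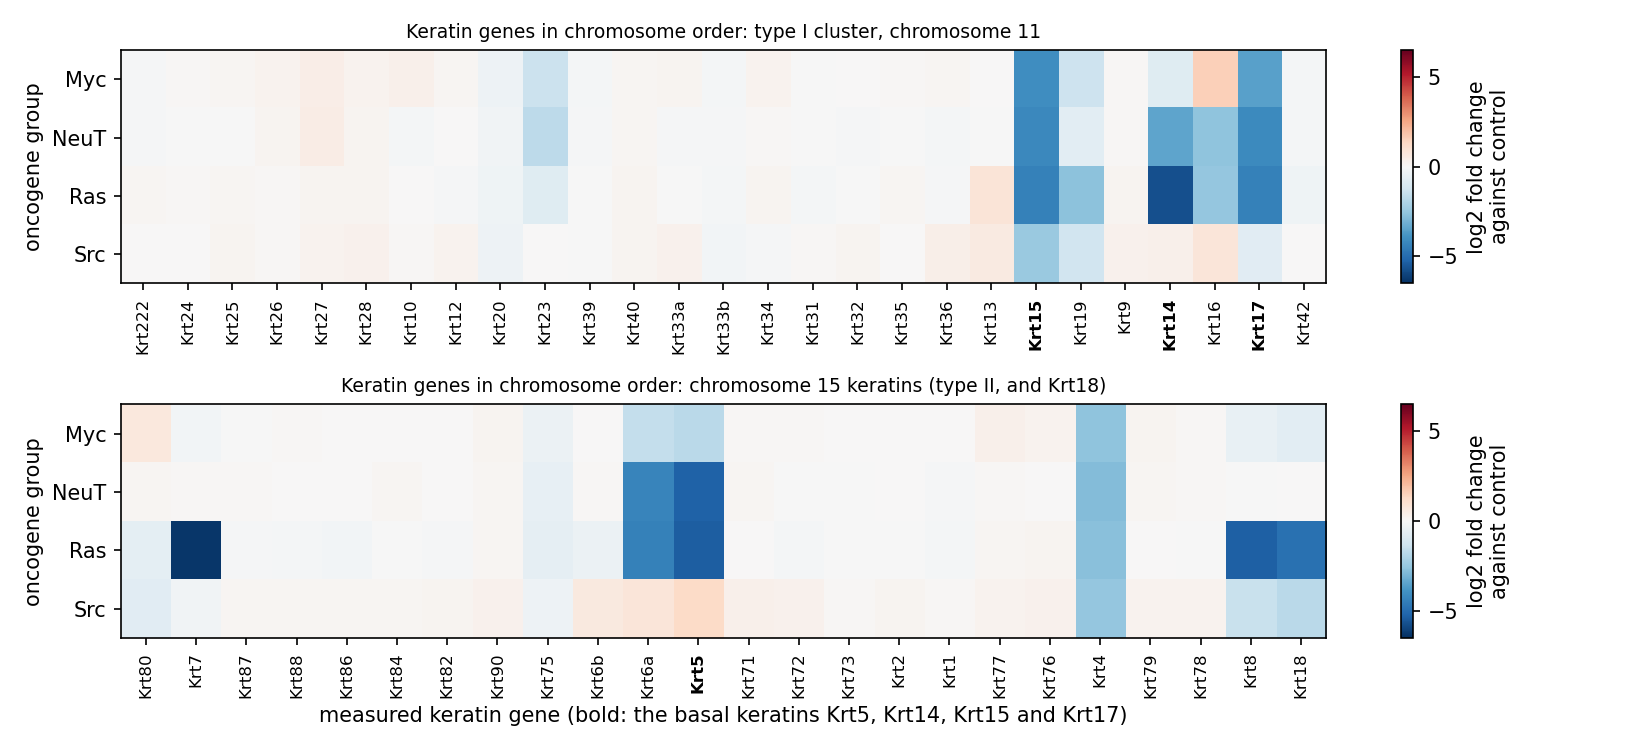
Log2 fold change against control (colour) of the measured keratin genes in chromosome order (x axis) in the 4 oncogene groups (rows). The basal keratins and Krt6a are dark blue in NeuT and Ras lines, and Krt7, Krt8 and Krt18 in Ras lines (Krt7 at -6.32).

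The controls held markers of both epithelial layers, and the simple keratins Krt7, Krt8 and Krt18 fell in Ras lines. Krt8 was at 12.86 in NeuT lines and 12.88 in control, and Krt18 at 12.25 in both. In Ras lines Krt8 fell to 7.59 (log2 fold change -5.29 ± 0.10, adjusted p = 1.31e-13), Krt18 to 7.41 (-4.84 ± 0.68, adjusted p = 7.5e-05) and Krt7 to 5.76 (-6.32 ± 0.08, adjusted p = 4.22e-15). The Ras arrays were not alike for Krt18, at 9.83, 6.58 and 5.80, with the first well above the others. Without Ras array 1 its log2 fold change was -6.06 ± 0.20 (adjusted p = 2.53e-10), and without array 2 or 3 it was -4.43 ± 0.74 (adjusted p = 0.00057) or -4.04 ± 0.60 (adjusted p = 0.000233). Krt8 was lower in Ras than in NeuT lines (log2 fold change -5.26 ± 0.10, adjusted p = 1.42e-13). Of 6 simple keratins, 2, 1, 4 and 2 were lower than control in the Myc-labelled, NeuT, Ras and Src lines, and 0 were higher. Luminal prostate markers moved beside the basal genes in Ras lines, with 8 of 16 lower and a log2 summed level of 11.07 to 11.78, against 14.55 to 14.65 in control. In the Myc-labelled, NeuT and Src lines 5, 3 and 5 of 16 were lower, at summed levels of 13.78 to 13.89, 14.16 to 14.27 and 13.62 to 13.67. Krt8, Krt18 and Krt19 belong both to these luminal markers and to the simple keratins, so the Ras counts of the lists share these genes. The part of cell makeup in the basal values was not tested. Urothelial markers, of which Krt20 and the uroplakins define that epithelium, had 2, 1, 3 and 1 of 9 lower and 0 higher in the Myc-labelled, NeuT, Ras and Src lines. Fibroblast markers had 2, 2, 1 and 2 of 10 lower and 0, 0, 1 and 0 higher in these groups, and smooth muscle markers 3 of 8 lower in each, with 1 higher in NeuT lines. Over all genes 2.86%, 2.8%, 3.1% and 1.51% were called higher in the Myc-labelled, NeuT, Ras and Src lines. Without control array 3, 2 urothelial markers were lower in Src lines and 1 luminal marker was higher in Ras lines, and the other counts of these 5 lists were equal. The log2 summed level of the smooth muscle markers was 9.29 to 10.18 over the 12 line arrays, against 10.90 to 11.47 in control.

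Among relatives and regulators of p63, Trp73, which encodes the p53 family member p73, had group means from 6.01 to 6.10, and no contrast passed (adjusted p = 0.966, 0.924, 0.812 and 0.53 in the Myc-labelled, NeuT, Ras and Src lines against control). Trp53 is not analysed here. Of 8 measured family members and regulators, 1 was called against control, the Notch target Hes1, which fell in Ras lines (log2 fold change -1.47 ± 0.17, adjusted p = 1.01e-05). Without control array 3 the Ras count was 2.

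Genes known as p63 targets in skin or mammary epithelium had most calls in Ras lines. Of 21 measured, 5, 4, 14 and 1 were lower than control in the Myc-labelled, NeuT, Ras and Src lines, and 0, 1, 0 and 2 were higher. Median log2 changes were -0.57, -0.03, -1.505 and 0.21, against 0.03, 0.02, 0.02 and 0.06 over all genes. Dsg3, a desmosomal cadherin of basal cells, fell in the Myc-labelled (-2.79 ± 0.18, adjusted p = 7.99e-08), NeuT (-5.07 ± 0.18, adjusted p = 3.42e-10) and Ras lines (-5.11 ± 0.18, adjusted p = 7.25e-11). Fgfr2, a fibroblast growth factor receptor, fell in the same groups, at -1.85, -2.07 and -2.12 (log2, SE 0.10 each). The ubiquitin ligase gene Trim29 fell there too, at -2.03, -2.27 and -2.23 (SE 0.22 each). In Src lines the atypical cadherin Fat2 (1.34 ± 0.08, adjusted p = 6.36e-08) and the growth factor binding protein Igfbp3 (2.01 ± 0.12, adjusted p = 6.04e-08) rose, and Dst, a linker of keratin to hemidesmosomes, fell (-1.06 ± 0.11, adjusted p = 9.97e-06). Igfbp3 rose in NeuT lines as well (1.29 ± 0.12) and fell in Ras lines (-3.51 ± 0.12, adjusted p = 6.93e-11). Of the 21, 16 were higher in Src than in Ras lines and 1 was lower. In Ras lines 10 were lower and 2 higher than in the Myc-labelled lines, and 10 lower and 0 higher than in NeuT lines. Without control array 3 the counts lower were 6, 6, 14 and 3, and higher 1, 1, 0 and 2.

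**Figure D4:**
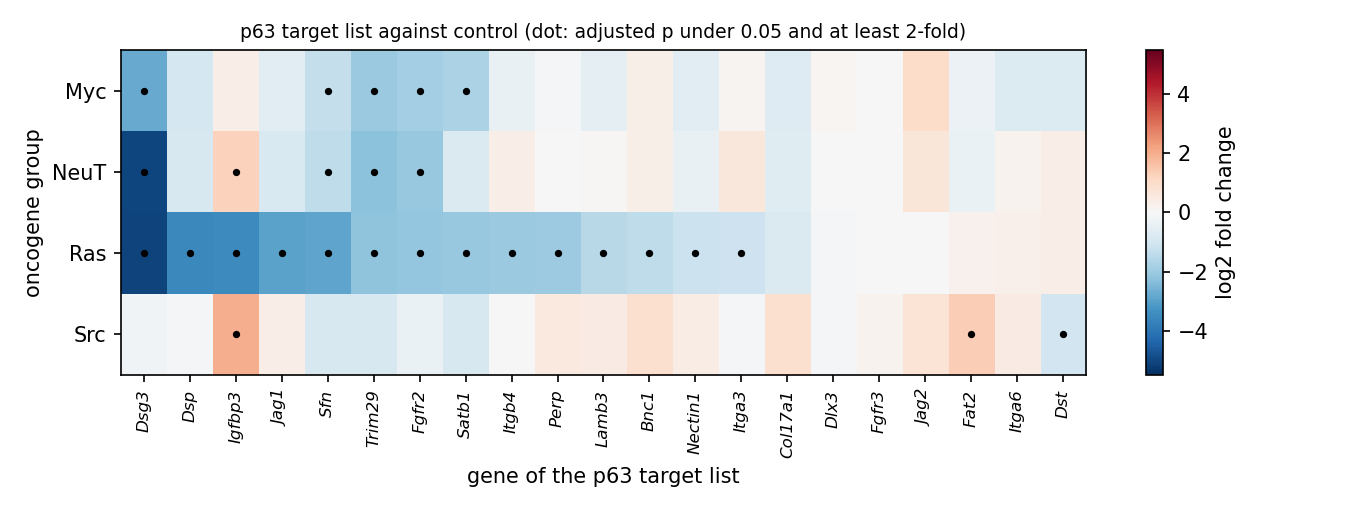
Log2 fold change against control (colour) of the 21 measured genes of the p63 target list (x axis, ordered by the Ras value) in the 4 oncogene groups (rows). Dots mark calls, of which Ras lines have 14, all lower.

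The proteins that anchor keratin filaments at junctions overlap that list in 6 genes. Of 18 measured, 4, 4, 8 and 3 were lower in the Myc-labelled, NeuT, Ras and Src lines and 0 were higher. Dsc3, the desmocollin of basal cells, fell in the Myc-labelled, NeuT and Ras lines (log2 fold change -2.28, -2.28 and -2.295, SE 0.19 each). In Src lines the members that fell were the plakophilin Pkp2 (-2.13 ± 0.11, adjusted p = 1.15e-08), Dst and the desmocollin Dsc2 (-1.37 ± 0.28, adjusted p = 0.00213). Dsc2 was called lower in the Myc-labelled, NeuT and Ras lines as well, at -1.25, -2.66 and -3.51. Without control array 3 the counts lower were 5, 5, 9 and 4. Of 18 other basal prostate markers, 8 of them shared with the p63 list, 8, 5, 10 and 1 were lower and 0, 0, 0 and 1 higher. The gene that rose in Src lines was Snai2, a repressor of epithelial genes found in basal cells (1.52 ± 0.14, adjusted p = 2e-06), and the one called lower with all controls was the growth factor receptor gene Egfr (-1.42 ± 0.16, adjusted p = 1.52e-05). Egfr was called lower in the Myc-labelled, NeuT and Ras lines as well, furthest in Ras lines (-3.12 ± 0.16, adjusted p = 2.68e-09). Snai2 fell in the Myc-labelled (-2.71 ± 0.14) and NeuT lines (-1.40 ± 0.14, adjusted p = 6.44e-09 and 3.07e-06). Without control array 3 the counts of these markers were 8, 5, 10 and 2 lower and 1, 0, 0 and 1 higher.

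The genes most like each of the 5 were ranked by the root mean square difference between group means, each profile centred on its own mean over the 5 groups, as a description. Genes whose symbols began with Gm and a digit, or held Rik, were left out of this ranking. Nearest to Krt5 were Krt6a (0.56), Dsg3 (0.70) and Krt14 (0.97). Nearest to Krt14 were Ppbp, a chemokine (0.77), Krt6a (0.80) and Krt5 (0.97), so that the Krt5 and Krt14 pair stood at rank 3 in both lists. Krt15 was nearest to Plekhs1 (0.17), the uroplakin Upk1b (0.22) and Rassf9 (0.24), all highest in control. Krt17 was nearest to the ion transport regulator Fxyd3 (0.33), the prostate stem cell antigen Psca (0.46) and the cytochrome P450 Cyp1b1 (0.52). Trp63 was nearest to the carboxylesterase Ces2g (0.15), the glutathione peroxidase Gpx2 (0.21) and the carbonyl reductase Cbr2 (0.23), each highest in Src lines. Trp63 lay 1.73 from Krt5 and 1.71 from Krt14. It ranked 27 in the Krt5 list and 130 in the Krt14 list, whereas in the Trp63 list Krt5 ranked 18128 and Krt14 18048. Genes with a small range of group means lie near each other by this measure, so ranks of wide-ranging genes are not comparable with it.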

How the data were processed

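Total RNA from cultured cells was measured on 15 biotin-labelled arrays after amplification with the WT-Ovation Pico system, per the labels' protocols. The values deposited by the authors are log2 expression, normalized across arrays. Per the submitters' processing notes, RMA and version 1.1 of Affymetrix Expression Console were among the tools. The sources used here give neither background settings nor a build. Of 35556 probe sets, 21789 had 1 gene, 1621 several and 12146 none in the platform annotation. The brightest probe set was taken for 999 genes with several, giving 19938 genes, with no filter on low values. Entrez identifiers matched 21698 probe sets to RefSeq.

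Group means for the 5 groups were estimated from the 15 arrays together in R 4.3.3, using lmFit and eBayes of limma 3.58.1. P-values are two-sided and Benjamini-Hochberg adjusted over all genes. The 5 genes and the lists were chosen with earlier results of these data known. List genes named were picked from those called with the smallest p, up to 4 per list and contrast. Some such genes were left out, among them Cav1, Satb1 and Jup. Trp73 and Kap were named as well, and a few further keratins were named after their values were seen. Alternatives covered scaling, filters, probe set averaging, variance, array weights, arrays fitted, a replicate block, each array left out and the fold minimum. List counts without control array 3, and Krt18 without each Ras array, were alternatives chosen after seeing the data. The 3 arrays a group limit precision. Figures used Python 3.11.15 and matplotlib 3.10.9.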

Additional observations from a re-analysis of the deposited data

Results flagged for a closer look

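The effects of the 4 oncogenes against control differed for all 5 genes by the F test among the oncogene groups. The adjusted p was 9.12e-13 for Krt5, 7.8e-12 for Krt14, 3.59e-05 for Krt15, 2.31e-09 for Krt17 and 8.22e-11 for Trp63. The range of oncogene group means (log2) was 6.60 for Krt5, 6.02 for Krt14, 1.95 for Krt15, 3.67 for Krt17 and 3.53 for Trp63. The Src lines were highest for all 5. Krt5 and Trp63 were called higher in Src lines and lower in the Myc-labelled, NeuT and Ras lines, each against the same controls.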

How the results depend on the processing

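Each of the 60 values (5 genes in 12 comparisons) was recomputed under 24 alternatives. Of 1440 values, 1435 kept their side of the thresholds, 0 lost a call and 0 called values reversed direction. Direction was not checked for values that were not called. The other 5 gained a call without the fold minimum, as given by their folds above: Krt14 in the Myc-labelled lines and Krt17 in Src lines against control, Trp63 for the mean of the lines, and Krt17 in Ras and in NeuT against the Myc-labelled lines. Without that minimum, 5699, 5339, 5469 and 5263 of all genes were called in the Myc-labelled, NeuT, Ras and Src lines against control, in place of 1288, 1182, 1412 and 886. Replicate numbers did not pair the arrays: same-numbered arrays of 2 groups had correlated deviations from -0.08 to 0.12, over 0.1 in 2 of 30 pairs. With the replicate block, the number of the 5 genes called stayed at 4, 5, 5 and 3 in the Myc-labelled, NeuT, Ras and Src lines against control. No label ties the arrays to a shared slide or scan. Levels under the median gene may limit the folds of all 5 genes in Ras lines and of all but Krt14 in NeuT lines. The same holds for Krt15, Krt17 and Trp63 in the Myc-labelled lines.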
